A study of Brassica rapa subsp. pekinensis with 6 samples.

Results

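Aliphatic glucosinolates are sulfur-rich defence compounds that crucifers such as Chinese cabbage make from methionine. The methionine side chain is first lengthened, the lengthened amino acid is then turned into the glucosinolate core by cytochrome P450 enzymes and later steps, and the side chain is finally modified. When tissue is damaged, myrosinases hydrolyse the products to compounds such as isothiocyanates, the source of the pungent taste of the family. The gene roles given here are known from Arabidopsis thaliana.

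The data cover 10 gene models for this pathway, of 43354 identifiers in the count table, taken from a list of identifiers. The list follows pathway names and sets no threshold on a measured value, but it was drawn up with earlier results of these data known. The list names 4 regulators, of which 3 are MYB28 copies (Bra035929, Bra029311 and Bra012961) and 1 is MYB29 (Bra005949). It names 2 copies of MAM (Bra029355 and Bra013007) for side-chain elongation, and CYP79F1 (Bra026058) and CYP83A1 (Bra032734) for the core structure. It also names 2 copies of AOP2 (Bra000848 and Bra034180) for side-chain modification. The deposited tables hold identifiers alone, and none of the 10 could be matched to a name in the RefSeq gene table used here. Each name below is therefore the one the identifier is listed under and was not checked against sequence.

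RNA of whole flower buds was sequenced from Brassica rapa subsp. pekinensis, line 'AB01', in which male sterility is inherited through multiple alleles. The groups were 3 libraries of fertile buds and 3 of sterile buds, described as biological replicates, from seed sown in a greenhouse after vernalization. Sterile and fertile are the only genotype terms in the labels. The labels do not state the alleles of each group, plant age, bud stage or the number of plants per library, so a difference in stage and a difference in fertility cannot be told apart. In such bulk tissue, fewer cells of a type and less RNA per cell cannot be told apart either. Without gene names, the defining markers of bud, anther and other floral tissue could not be examined.

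Libraries held between 27637426 and 35564895 counts, so 3 counts amount to 0.0844 to 0.109 counts per 1000000 counts (CPM) in a single library. Values called CPM below were scaled with TMM factors (trimmed mean of M values), unless raw CPM, scaled to the library total alone, is named. With TMM, 62.5% of the 33150 genes tested passed the threshold, a Benjamini-Hochberg adjusted p under 0.05 in edgeR's quasi-likelihood test. The lower genes made up 33.3% of those tested and the higher genes 29.2%. Scaling to library totals alone raised the median of the log2 fold changes over all genes by 0.31, which turns the sign of small changes. Log2 fold changes give sterile over fertile buds throughout. Where a level is called so many fold lower, the fold is fertile over sterile buds.

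Most of the listed enzymes and the MYB29 model were lower in sterile buds. The 3 MYB28 models changed less than the other tested models, and not all in the same direction. Of the 10 models, 8 had enough reads to be tested, and 7 of these were lower and 1 higher in sterile buds. The lower ones stand against 33.3% of all genes tested, and the higher one against 29.2%. The falls were at least 2-fold in 4 models, those listed as MYB29, MAM (Bra029355), CYP83A1 and AOP2 (Bra000848), against 15.1% of all genes tested. The median log2 fold change of the 8 models was -0.998, and the same median over all genes tested was 0.00. The MAM and AOP2 models among the 8 reached the count minimum only through their fertile libraries, so a test on them could hardly have given anything but a fall. Scaled to library size alone, 5 models were lower and 1 higher, against 20.7% and 59.1% of all genes. Fertile and sterile libraries did not overlap, with sterile lower, in 6 of the 8 tested models, against 35% of all genes tested. These 6, the 7 lower models, the 4 with falls of at least 2-fold and the median all include the MAM and AOP2 models. Set against the shares of all genes, they thus rest in part on 2 models whose direction the count minimum nearly fixed. Apart from these, the MYB29 and CYP83A1 models were the ones at least 2-fold lower.

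**Figure D1:**
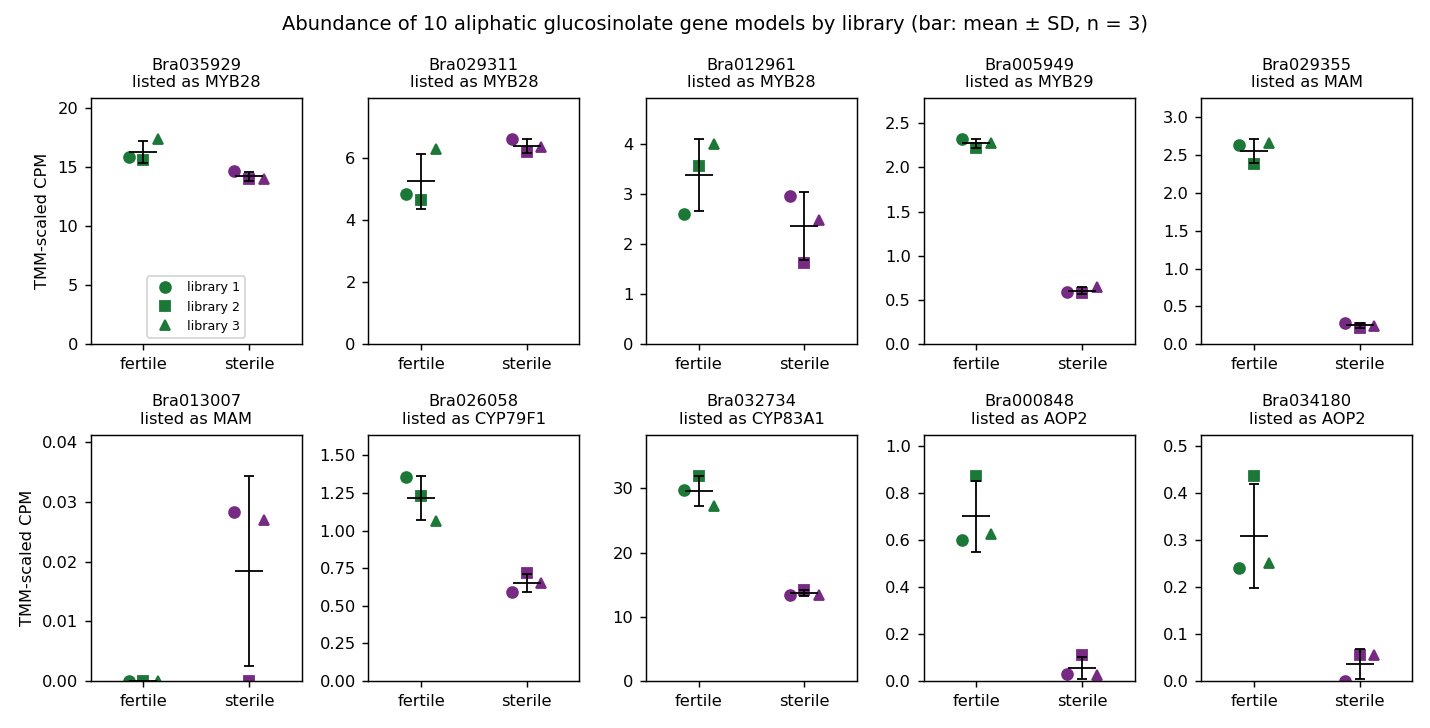
TMM-scaled CPM (vertical axis, linear from 0, a scale of its own in each panel) of the 10 gene models in each of 3 fertile (green) and 3 sterile (purple) libraries, with the mean and SD of each group as black bars. The sterile libraries lie below the fertile ones in 7 panels. Of these, 6 are among the 8 tested models, against 35% of all genes tested, and Bra034180 was not tested. The 6 include Bra029355 and Bra000848, which reached the count minimum only through their fertile libraries. The 3 MYB28 panels show the smallest differences relative to their level among the tested models.

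MYB28 is a MYB transcription factor that activates the genes of methionine-derived glucosinolate synthesis, and it is regarded as the main regulator of the long-chain products. Bra035929 was the most abundant of the 3 copies listed. It stood at 15.9, 15.7 and 17.4 CPM in the fertile libraries and at 14.7, 14.02 and 14.04 CPM in the sterile ones. The groups did not overlap, but the gap between them was smaller than the range of the fertile libraries. This is a log2 fold change of -0.20 ± 0.07 (SE; edgeR's adjusted p = 0.013, n = 3 per group). The direction of this change rests on the scaling. In raw CPM the fertile libraries held 14.4, 13.98 and 15.7 and the sterile ones 16.3, 15.8 and 15.5, and with library size alone the log2 fold change was 0.11 (edgeR's adjusted p = 0.16, range over all settings 0.013 to 0.89). Relative to the median gene it was -0.20 under both scalings. This likeness follows by construction, since a change of scaling shifts all genes by nearly the same amount.

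Bra029311, the second MYB28 copy by abundance, was the one tested model with a higher value in sterile buds. Its fertile libraries held 4.84, 4.64 and 6.28 CPM and its sterile libraries 6.62, 6.19 and 6.37 CPM. Fertile library 3 lay within the sterile range, and the other fertile libraries lay below it. Its log2 fold change was 0.27 ± 0.11 (SE; edgeR's adjusted p = 0.043, range over all settings 0.00011 to 0.19). The call was lost with DESeq2 (adjusted p = 0.11) and when fertile library 1 (adjusted p = 0.16), fertile library 2 (0.19), sterile library 1 (0.096) or sterile library 3 (0.068) was left out of the edgeR fit. The direction was the same in all of these.

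Bra012961, the least abundant MYB28 copy, varied most within groups relative to its mean, among the 3 MYB28 models. It had 2.60, 3.57 and 4.0 CPM in fertile buds and 2.97, 1.62 and 2.48 CPM in sterile buds, and the groups overlapped. The log2 fold change of -0.54 ± 0.19 (SE) passed the threshold (edgeR's adjusted p = 0.018, range over all settings 0.0028 to 0.25). It did not pass without fertile library 2 (adjusted p = 0.054), fertile library 3 (0.12) or sterile library 2 (0.10), nor with either of the other scalings in edgeR.

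Reads of near-identical copies may have been split between them, so the counts of the 3 MYB28 models were also summed before the fit. The sum stood at 23.3, 23.9 and 27.7 CPM in fertile buds and at 24.3, 21.8 and 22.9 CPM in sterile buds. These groups overlapped, and the log2 fold change of -0.12 ± 0.07 (SE) did not pass the threshold (edgeR's adjusted p = 0.14). With library size alone the sum was higher in sterile buds, at a log2 fold change of 0.18 (edgeR's adjusted p = 0.023, range over all settings 0.023 to 0.69).

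The make-up of the MYB28 reads does not depend on library scaling. Bra035929 held 66.0% ± 2.65 of the summed RPKM (reads scaled to model length and library total) of the 3 copies in fertile buds and 62.7% ± 2.01 in sterile buds (SD, n = 3 each). Bra029311 held 20.0%, 18.8% and 21.9% in the fertile libraries and 26.4%, 27.5% and 27.0% in the sterile ones. All sterile libraries exceeded all fertile ones for this copy, and the difference of 6.72 percentage points gave p = 0.1 in an exact permutation test (two-sided), the lowest value possible with 3 libraries a group, and 0.33 once adjusted over 5 shares. Bra012961 held 13.7% ± 2.11 and 10.4% ± 2.52 (SD, n = 3 each), with overlapping groups (exact permutation p = 0.2, adjusted 0.33).

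MYB29, the partner of MYB28, is a MYB factor that activates the same pathway and is known for a role in its response to jasmonate. The single listed model, Bra005949, was far lower in sterile buds. It had 2.32, 2.22 and 2.28 CPM in the fertile libraries and 0.594, 0.577 and 0.648 CPM in the sterile ones. Each group was tight and the gap between them was many times the spread within either. The log2 fold change was -1.90 ± 0.18 (SE; edgeR's adjusted p = 2.3e-08), a 3.73-fold lower level, and 10.98% of all genes tested had a lower fold change.

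The MYB29 model therefore made up less of the listed MYB transcripts in sterile buds. Its share of the summed RPKM of the 4 MYB models was 9.76%, 9.20% and 8.24% in fertile libraries and 2.60%, 2.81% and 3.0% in sterile ones. The ratio of Bra035929 to Bra005949 in RPKM was 6.64 ± 0.37 in fertile and 21.8 ± 1.53 in sterile buds (SD, n = 3 each). These ratios were formed after the values were seen and are given without a test.

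**Figure D2:**
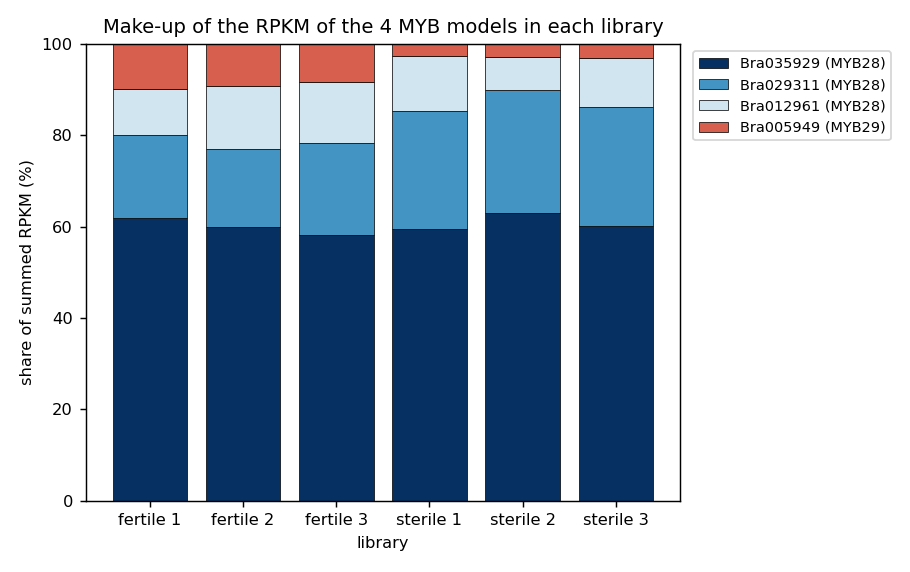
Share of the summed RPKM (percent, vertical axis) that each of the 4 MYB models holds in each library (horizontal axis). The MYB29 model (red) takes 8.24% to 9.76% in fertile and 2.60% to 3.0% in sterile libraries, and Bra029311 takes a larger part in the sterile libraries.

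MAM, methylthioalkylmalate synthase, catalyses the condensing step that lengthens the methionine side chain. Nearly all reads of the listed copies fell on Bra029355. This model had 66, 60 and 85 counts in the fertile libraries and 10, 8 and 9 in the sterile ones, or 2.64, 2.38 and 2.66 CPM against 0.283, 0.220 and 0.243 CPM. The groups were far apart, and no library lay between them. The log2 fold change was -3.35 ± 0.22 (SE; edgeR's adjusted p = 5.2e-11), which is 10.2-fold lower, and 7.77% of all genes tested had a lower value. Bra029355 reached the count minimum only through its fertile libraries, so the test and the rank add no support beyond the counts.

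Bra013007, the other MAM model, was at the limit of detection. It had 0 counts in all fertile libraries and 1, 0 and 1 counts in the sterile ones, and was not tested. A count of 0 over the 91457958 fertile counts allows up to 0.0328 raw CPM, which covers counting error alone, and no fold is given. The model length recovered from the tables was 5832 nt, 4.04 times that of Bra029355 and longer than 99.7% of Bra models. MAM enzymes are known to be of similar length to each other, so the name or the gene model is uncertain for Bra013007. Which of them is wrong, if either, was not tested.

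CYP79F1 and CYP83A1 are the cytochrome P450 enzymes that open the synthesis of the core structure. CYP79F1 turns chain-elongated methionine into aldoximes, and CYP83A1 oxidises these further. Bra026058, listed as CYP79F1, had 1.36, 1.23 and 1.06 CPM in fertile buds and 0.594, 0.715 and 0.648 CPM in sterile buds. The groups did not overlap. Its log2 fold change of -0.88 ± 0.21 (SE; edgeR's adjusted p = 0.0014) corresponds to a 1.84-fold lower level and rests on 99 fertile and 71 sterile counts in all.

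Bra032734, listed as CYP83A1, was the most abundant of the 10 models in fertile buds. It stood at 29.7, 31.9 and 27.2 CPM in the fertile libraries and at 13.4, 14.2 and 13.3 CPM in the sterile ones. The lowest fertile library was well above the highest sterile one. The log2 fold change was -1.11 ± 0.07 (SE; edgeR's adjusted p = 2.1e-11), a 2.17-fold fall. With library size alone the log2 fold change was -0.81, short of 2-fold, and still passed (edgeR's adjusted p = 3.0e-09, range over all settings 5.1e-36 to 3.0e-09).

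The P450 models were lower together, at an abundance that differed by more than an order of magnitude per length. The ratio of the CYP83A1 model to the CYP79F1 model in RPKM was 26.4 ± 2.45 in fertile and 22.65 ± 1.5 in sterile buds (SD, n = 3 each), with overlapping libraries. The ratio of the CYP83A1 model to the main MYB28 model Bra035929 was 1.33, 1.46 and 1.12 in fertile libraries and 0.651, 0.723 and 0.677 in sterile ones. Per length, the enzyme model was thus above the regulator in every fertile library and below it in every sterile one, whatever the scaling of libraries. In counts, which are not scaled to length, the sterile libraries held 474, 517 and 494 for the enzyme model. They held 519, 510 and 520 for the regulator, so the order in sterile library 2 was the other way. These ratios are descriptions without a test.

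AOP2 is a dioxygenase that converts methylsulfinylalkyl glucosinolates to the alkenyl forms. Bra000848 had 15, 22 and 20 counts in fertile libraries and 1, 4 and 1 in sterile ones, or 0.599, 0.872 and 0.625 CPM against 0.0283, 0.110 and 0.0270 CPM. The lowest fertile library was several times the highest sterile one. The log2 fold change was -3.56 ± 0.45 (SE; edgeR's adjusted p = 8.4e-07), or 11.8-fold lower, and 7.43% of all genes tested had a lower value. Bra000848 also reached the count minimum only through its fertile libraries, so its test and rank add no support beyond the counts. With so few sterile counts the size of the fall is loosely set, and without sterile library 2 it was -4.46 on the log2 scale.

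Bra034180, the other AOP2 model, showed the same pattern with fewer reads. It had 6, 11 and 8 counts in fertile libraries and 0, 2 and 2 in sterile ones, under the count minimum of the test. The groups did not overlap. Without a low-count filter it stood at -2.91 on the log2 scale (edgeR's adjusted p = 0.00046), and at -3.07 in DESeq2 (adjusted p = 0.0039). Most of its few reads came from the fertile libraries, so these tests add no support beyond the counts.

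Summing the AOP2 copies gave 21, 33 and 28 counts in fertile and 1, 6 and 3 in sterile libraries, with a log2 fold change of -3.39 ± 0.40 (SE; edgeR's adjusted p = 3.2e-07). Without sterile library 2 it was -4.08. Bra000848 held 77.9% ± 2.26 of the summed RPKM of the AOP2 copies in fertile buds and 72.8% ± 28.5 in sterile buds (SD, n = 3 each). The sterile libraries ranged from 43.2% to 100%, and a change in the balance of these copies was not detectable at this depth (exact permutation p = 0.8, adjusted 0.8). For the MAM copies the share of Bra029355 was 100% in every fertile library and 97.3% to 100% in sterile ones (exact permutation p = 0.4, adjusted 0.5), and the log2 fold change of the sum was -3.25 ± 0.22 (SE; edgeR's adjusted p = 7.8e-11). Both sums, like Bra029355 and Bra000848, reached the count minimum only through the fertile libraries, so these tests add no support for a fall.

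**Figure D3:**
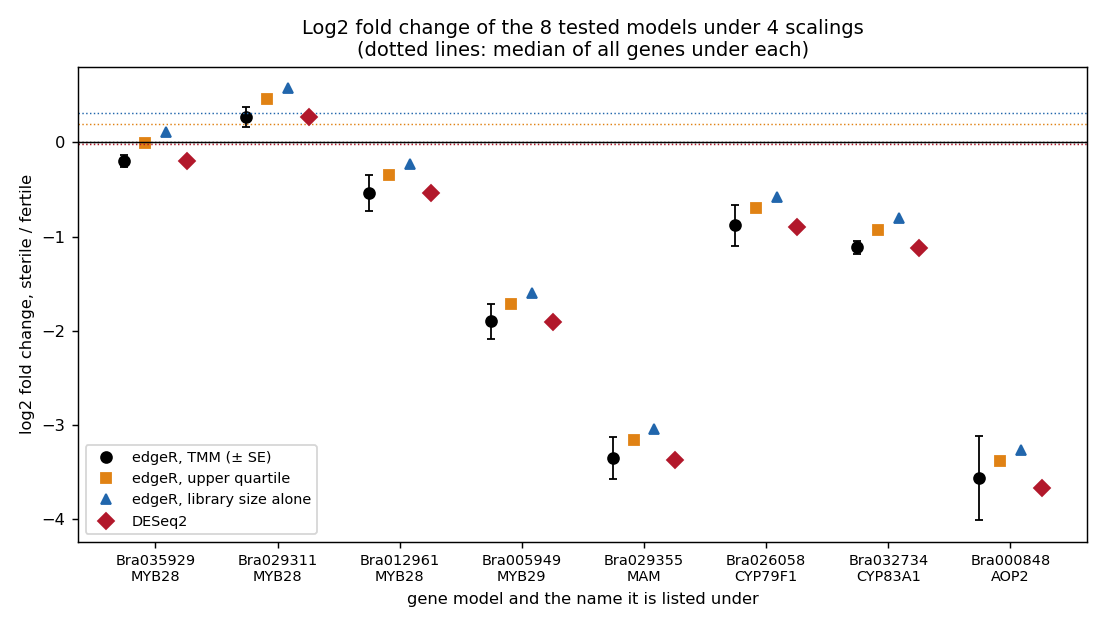
Log2 fold change of sterile over fertile buds (vertical axis) of the 8 tested models under edgeR with TMM (black, with SE), upper-quartile factors (orange) or library size alone (blue), and under DESeq2 (red), with the median of all genes under each as a dotted line. The MYB29, MAM, CYP79F1, CYP83A1 and AOP2 models lie below 0 throughout, and Bra035929 lies on either side of 0 depending on the scaling.

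Per length, the models differed by orders of magnitude in level. In fertile buds the CYP83A1 model was highest at 17.7 ± 1.35 RPKM, followed by the MYB28 models at 13.7 ± 0.81 (Bra035929), 4.22 ± 0.73 (Bra029311) and 2.86 ± 0.60 (Bra012961) RPKM (SD, n = 3 each). Next came MYB29 at 2.06 ± 0.06 and MAM (Bra029355) at 1.59 ± 0.11 RPKM. AOP2 (Bra000848) at 0.724 ± 0.15 and CYP79F1 at 0.674 ± 0.08 RPKM overlapped, and the second AOP2 model was at 0.210 ± 0.07 RPKM. No other neighbours in this order overlapped.

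In sterile buds the order changed at the top and in the lower part. Bra035929 led at 14.8 ± 0.38 RPKM, above the CYP83A1 model at 10.1 ± 0.47 and Bra029311 at 6.35 ± 0.18 RPKM (SD, n = 3 each). Bra012961 followed at 2.46 ± 0.70, MYB29 at 0.679 ± 0.04 and CYP79F1 at 0.447 ± 0.05 RPKM. The CYP79F1 model thus lay above MAM, at 0.191 ± 0.02 RPKM, and above AOP2 (Bra000848), at 0.0711 ± 0.06 RPKM. The AOP2 models and Bra013007 overlapped in neighbouring pairs, and the others did not. Among all genes tested, 66.8% had a lower mean RPKM than the CYP83A1 model in fertile buds and 51.5% in sterile buds, while Bra035929 stood at 60.5% in both.

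**Figure D4:**
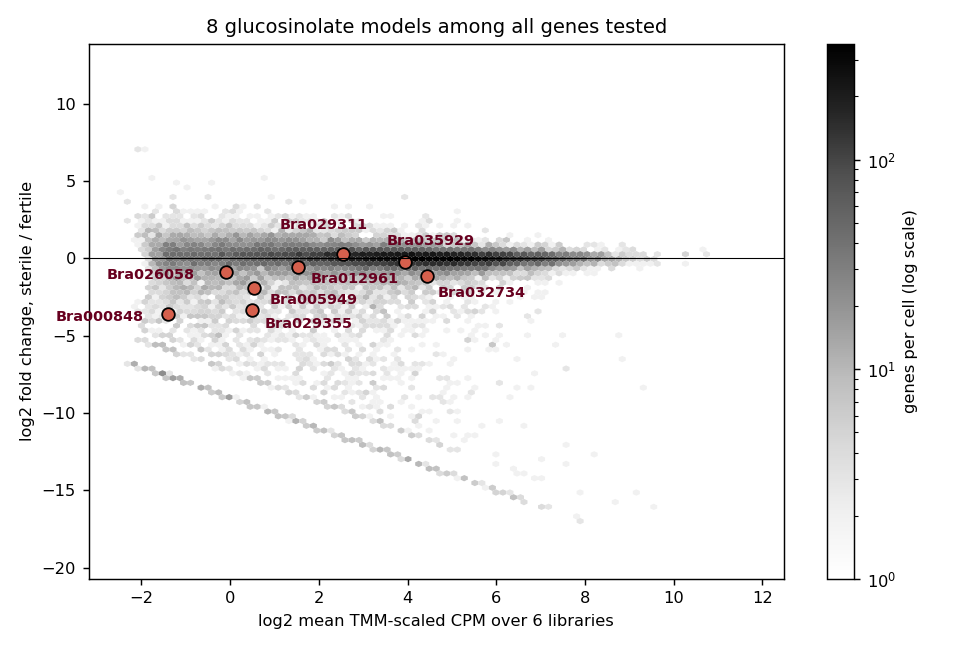
Log2 fold change of sterile over fertile buds (vertical axis) against log2 mean TMM-scaled CPM over the 6 libraries (horizontal axis) for all 33150 genes tested (grey, darker where more genes lie) and the 8 tested models (red). Bra029311 lies above 0, and the AOP2 model Bra000848 and the MAM model Bra029355 lie lowest of the 8, within the broad cloud of genes that were lower in sterile buds.

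The deposited RPKM values gave a second scale, scaled to library totals and tested with limma on log2(RPKM + 1). Of the 10 models, 6 reached an RPKM of 1 in 3 libraries, and of these 3 were lower, 1 was higher and 2 did not pass. The background was 19.9% of genes lower and 61.1% higher. On the log2(RPKM + 1) scale, which understates changes of low genes, the changes were -0.87 for MYB29 (limma adjusted p = 2.5e-06), -1.12 for MAM Bra029355 (5.2e-07) and -0.75 for CYP83A1 (2.8e-06). MYB29 and MAM reached that minimum only in fertile libraries. Bra029311 rose by 0.50 (limma adjusted p = 0.00070), Bra035929 stood at 0.10 (0.13) and Bra012961 at -0.17 (0.34). These values rest on the same reads as the counts.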

How the data were processed

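The authors deposited raw read counts per gene and RPKM for all 6 libraries, per the file headers, and each of the 12 columns used was matched to its sample by title. The submitters' processing notes name Bowtie2 2.0.6 and TopHat2 2.0.9 without saying what each did. For the read counter, strand setting, genome build and annotation nothing is stated there or in the labels, so overlapping genes and near-identical copies may share reads. Model lengths were recovered as count divided by RPKM and library total. They were multiples of 3 (within 0.01 nt) for nearly all Bra models, so they are coding lengths.

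Counts were tested in R 4.3.3 with edgeR 4.0.16 (filterByExpr with a minimum of 10 counts, TMM, glmQLFit and glmQLFTest, no replicate term), adjusted over all genes. The SE was taken as the log2 fold change over the root of its F statistic. The limma test (version 3.58.1, with a trend) used log2(RPKM + 1) for genes at 1 or more in 3 libraries. DESeq2 1.42.0, other scalings and filters, a replicate block and leaving out each library were alternatives. Scripts were tested on simulated data. The p-values of edgeR, DESeq2 and limma set the difference between groups against the spread between these libraries. For each gene that spread was drawn towards a trend over all genes, so it is not the gene's own spread alone. The number of plants behind each library is not stated.

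The gene models and lists were chosen with earlier results of these data known. All 10 models are named, whatever their values. Further pathway, myrosinase and tissue marker lists were not used: of 51589 RefSeq genes (assembly CAAS_Brap_v3.01) 1 matched an identifier of the tables, and it was none of the 10. No sequence or position is given for the same reason.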

Additional observations from a re-analysis of the deposited data

How the results depend on the processing

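The falls of the MYB29, MAM (Bra029355), CYP79F1, CYP83A1 and AOP2 (Bra000848) models kept their direction and their call in every alternative that gave a value. For the MAM and AOP2 models this says nothing of stability, since they reached the count minimum only through fertile libraries. The MYB28 models did not keep theirs. For Bra035929 the log2 fold change was 0.11 with library size alone, -0.011 with upper-quartile factors and -0.20 with DESeq2, none past the threshold. For Bra029311 it was 0.27 with DESeq2, not past the threshold, so the number of models called higher was then 0. For Bra012961 it was -0.23 with library size alone and -0.35 with upper-quartile factors, neither past the threshold. The MYB28 sum was 0.18 with library size alone and 0.066 with upper-quartile factors. The scalings differ by construction in the shift they give all genes, and with library size alone and upper-quartile factors 19608 and 16076 genes were higher, against 9685 with TMM, and 6854 genes were lower with library size alone. The cause of the losses with DESeq2 was not tested.

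Leaving out each library gave -0.23 to -0.15 for Bra035929, whose call was lost without fertile library 3 (adjusted p = 0.10), 0.19 to 0.43 for Bra029311, -0.73 to -0.33 for Bra012961, 0 to 1 models higher, 0.072 to 0.15 for Bra035929 in RPKM (past the threshold without fertile library 3) and -18.6 to 9.75 percentage points for the share of Bra000848, reversed without sterile library 3. Deviations of same-numbered libraries correlated at 0.035, -0.079 and 0.17, so numbers were not taken as pairs. The replicate block gave 21212 genes and 8 models past the threshold and changed no call of a model. With at least 50 counts in 3 libraries the CYP79F1 and AOP2 models had no value. Depth limits the AOP2 and MAM models, with at most 10 counts in any sterile library.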

Other observations

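The identifier numbers of a MYB28 model and a MAM model lie close together in the pairs given here. The pairs were picked for their near numbers, so the closeness is no result, and Bra035929 is in none of them. Bra012961 and Bra013007 are 46 numbers apart, and Bra029311 and Bra029355 are 44 apart. Whether identifier numbers follow genome order was not tested here, and no position is given. Bra029311 was higher in sterile buds by 0.27 on the log2 scale and Bra029355 was lower, at a log2 fold change of -3.35. Bra012961 stood at -0.54, and Bra013007 had 2 counts in all and was not tested. Differences between members of a pair were not tested.

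The models listed under one name also differed in coding length. The MYB28 models were 1065 nt (Bra012961), 1074 nt (Bra035929) and 1119 nt (Bra029311) long, and the MYB29 model 993 nt. The CYP79F1 and CYP83A1 models were 1623 and 1506 nt long. The AOP2 models differed most after the MAM models, at 1320 nt for Bra034180 and 867 nt for Bra000848, so their RPKM values rest on models of unequal extent.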
